A study of Mus musculus with 2 samples.

Results

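The cells described here are those of mouse dorsal skin that met a rule for papillary-like dermal fibroblasts, a name that marker genes outside the rule did not bear out for them as a single cell type. They were 173 of the 62289 cell barcodes that passed the quality limits in 2 single-cell libraries. A barcode was counted as a member when 4 conditions held. It had 200 to 8000 detected genes with mitochondrial genes at no more than 10% of its UMIs (unique molecular identifiers, each standing for 1 captured transcript). Its summed Col1a1, Col1a2 and Col3a1 reached at least 100 per 10000 UMIs. It held a UMI of at least 2 of the 6 markers Cthrc1, Corin, Tnmd, Adamts18, C6 and Wif1, and of fewer than 2 of the 5 adventitial genes Pi16, Sfrp4, Mfap5, Ebf2 and Myoc. The members were chosen by measured values of the same libraries, namely UMIs of these collagen, marker and adventitial genes, so the levels of these 14 genes, the cell numbers and everything that moves with them are descriptions and not independent evidence.

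The series addressed hair loss after androgen exposure, the mouse model of androgenetic alopecia. All mice were male C3H/HeN animals, 7 weeks old at the start and 9 weeks old at harvest, whose back hair had been shaved. Those of the TP group received testosterone propionate under the skin at 0.5 mg per day, and those of the Con group were the negative controls, given vehicle. Skin of 15 mice per group was pooled into 1 droplet library, so there is no replicate in either group, and no p-value is given. All intervals are 95% intervals of counting error only: they cover neither the spread between mice nor that between libraries, and transcripts of 1 cell share a source. A group that also received an antibody was not analysed here.

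Dermal fibroblasts build the collagen scaffold of the skin. The papillary layer lies under the epidermis and around the upper follicles, the reticular layer lies deeper, and Pi16-bearing adventitial fibroblasts line vessels and fascia. Specialised fibroblasts sit on the follicle itself: the dermal papilla, which signals to the hair matrix and is a target of androgens, and the contractile dermal sheath, a smooth muscle-like sleeve around the follicle. Of the marker genes of the rule, Cthrc1 encodes a secreted collagen triple helix repeat protein, Corin a membrane serine protease that marks the papilla, and Wif1 a secreted WNT inhibitor. Tnmd encodes tenomodulin, a membrane glycoprotein of tendon and fibroblasts, Adamts18 a matrix metalloprotease, and C6 a complement component.

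The kept barcodes numbered 42244 in Con and 20045 in TP, with medians of 2162 and 5166 UMIs. The libraries shared 303 barcode sequences, and no barcode was a member in both. Members held 150611 UMIs in Con and 1446502 in TP. Per member the median was 3540 UMIs (range 2012 to 11366) in Con and 9819.5 (1405 to 35802) in TP. The TP members were thus read more deeply, which raises the chance that a marker or an adventitial gene shows a UMI. Mitochondrial genes made up a median of 2.10% of a member's UMIs in Con and 2.19% in TP. A doublet score called 0 of the 35 Con members and 18 of the 138 TP members. They were kept.

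Members were more frequent among the cells of the TP library. They were 35 of 42244 kept barcodes in Con, 0.0829% (Clopper-Pearson interval 0.0577 to 0.115), and 138 of 20045 in TP, 0.689% (0.579 to 0.813). The ratio of the shares was 8.31 (5.70 to 12.4). This difference was not particular to the members: barcodes over the collagen minimum made up 0.450% of Con and 3.72% of TP, a ratio of 8.28 (7.05 to 9.76). Among those fibroblasts the member share was 18.4% in Con (13.2 to 24.7, 35 of 190) and 18.5% in TP (15.8 to 21.5, 138 of 746), a ratio of 1.00 (0.689 to 1.5). Both shares are at full depth, and the deeper reading of the TP library bears on how many barcodes met the marker and adventitial parts of the rule. Pi16-side fibroblasts, which hold at least 2 of the 5 adventitial genes and fewer than 2 of the 6 markers, numbered 68 in Con and 288 in TP, and their share of kept barcodes differed by a ratio of 8.93 (6.83 to 11.8). The libraries differed at the same time in other cells. Dermal papilla barcodes numbered 4106 in Con and 1528 in TP, or 9.72% and 7.62% of kept barcodes, a ratio of 0.784 (0.739 to 0.832). Inner root sheath barcodes numbered 2530 and 343, or 5.99% and 1.71%, a ratio of 0.286 (0.2545 to 0.3199). The yield of each cell type from the dissociation and its share in the skin cannot be told apart in these shares.

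The share ratio moved with the settings of the rule. When every barcode was thinned to 1000 UMIs, 27 Con and 47 TP barcodes met the rule and the ratio was 3.35 (2.05 to 5.60). With a collagen minimum of 50 per 10000 UMIs the counts were 182 and 167 and the ratio 1.93 (1.56 to 2.40), and with a minimum of 200 they were 11 and 115 and the ratio 22.03 (11.9 to 45.4). Leaving Corin out of the markers gave 13 and 133 members and a ratio of 21.6 (12.2 to 41.6). TP was on the higher side at each of these settings, but the size of the excess ranged more than its counting interval. Con members crowded the collagen limit. Their median was 147.1 collagen UMIs per 10000 against 767.3 in TP, the lowest Con members were at 100.1, 100.5 and 103.1, and the nearest barcodes below the limit that met the rest of the rule were at 99.36, 96.59 and 93.33. In TP the lowest members were at 106.3, 110 and 111 and the nearest barcodes outside at 96.52, 92.36 and 91.96. As many as 4301 Con barcodes and 1334 TP barcodes met the marker and adventitial parts of the rule and failed the collagen minimum.

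**Figure D1:**
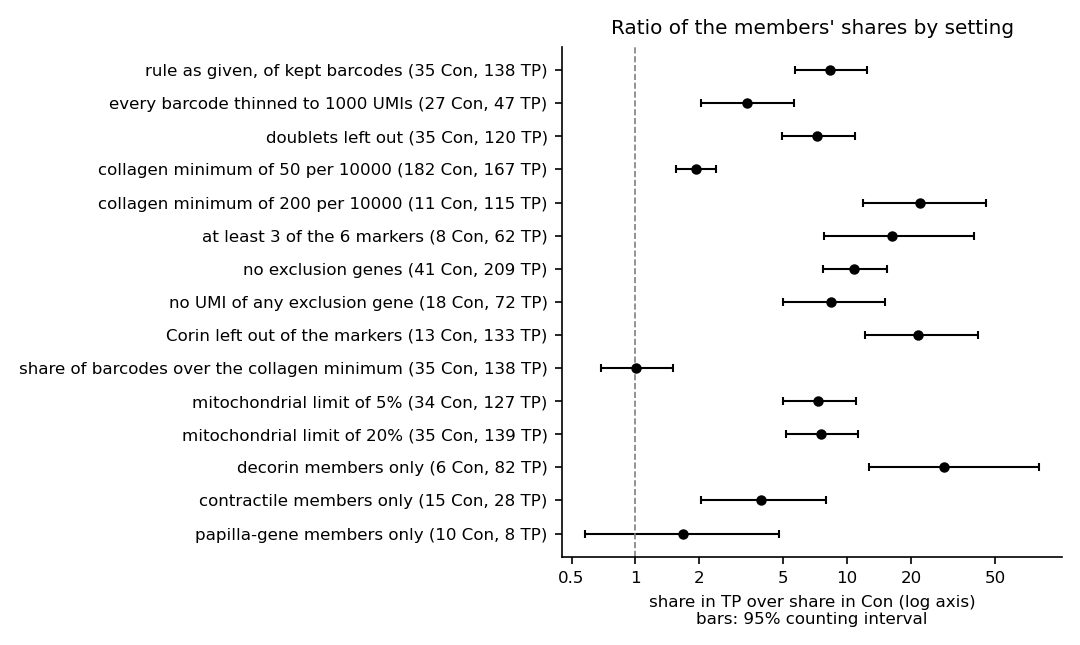
Share of barcodes that were members in TP divided by that in Con (log axis) under the rule as given and under each alternative setting, with the number of members in each library; points are ratios and bars 95% counting intervals. The ratio runs from 1.00 among barcodes over the collagen minimum to 28.8 for decorin members, and the dashed line marks equal shares.

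Genes outside the rule did not bear out the label papillary-like for the members as a single cell type, as the kinds and the marker lists described further on show. By genes outside the rule, the members fell into 4 kinds, whose limits were chosen after the values were seen. Papilla-gene members held a UMI of at least 3 of Alx4, Sox18, Rspo3, Rspo4, Ndnf, Vip, Hhip and Prlr, which mark the dermal papilla. Contractile members were those left with Acta2, Tagln and Col11a1 at 10 or more per 10000 UMIs together. Acta2 encodes smooth muscle actin and Tagln the actin-binding protein transgelin. Decorin members were those left with Dcn and Lum, the collagen-binding proteoglycans decorin and lumican, at 20 or more per 10000. The remaining members met none of these limits. The genes that set a kind (the 8 papilla genes, Acta2, Tagln, Col11a1, Dcn and Lum) have values within kinds, and values weighted by kind, that follow in part from that choice. In Con, 10 members were of the papilla-gene kind, 15 contractile, 6 decorin and 4 remaining. In TP the same kinds numbered 8, 28, 82 and 20. So 25 of the 35 Con members carried the genes of the follicle's own mesenchyme, and the decorin kind, with the high Dcn and Lum usual in dermal fibroblasts, was 17.1% of Con members (6.56 to 33.7) and 59.4% of TP members (50.7 to 67.7).

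**Figure D2:**
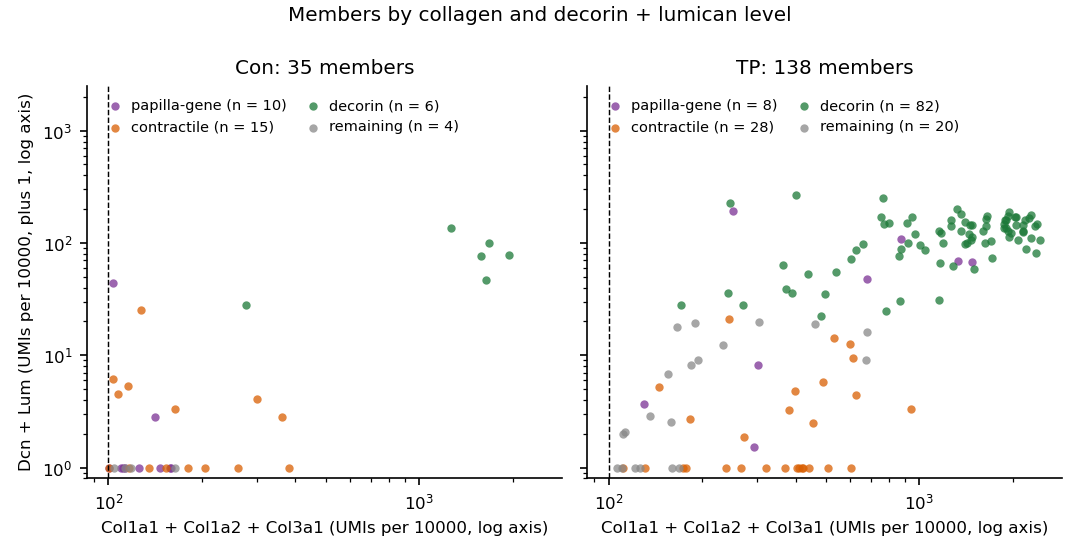
Each point is 1 member, with its summed Col1a1, Col1a2 and Col3a1 on the horizontal axis and its summed Dcn and Lum, plus 1, on the vertical axis, both in UMIs per 10000 on log axes, for the 35 Con members (left) and the 138 TP members (right). Colour gives the kind, and the dashed line is the collagen minimum of 100; most Con members lie near that line with little or no Dcn and Lum, while the 82 decorin members of TP extend to the upper right.

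The frequency of the kinds was compared next. As a share of kept barcodes, decorin members were 28.8 times as frequent in TP (12.7 to 80.8), contractile members 3.93 times (2.03 to 7.92) and the remaining members 10.5 times (3.53 to 42.4). For papilla-gene members the ratio was 1.69 (0.578 to 4.74), an interval that includes 1. The kinds also differed in the collagen that let them in. The median collagen level was 1608 per 10000 UMIs in the decorin members of Con and 1401 in those of TP. Papilla-gene members had medians of 119 in Con and 490 in TP, and contractile members 153 and 402. Decorin-level barcodes over the collagen minimum, members or not, numbered 105 in Con and 618 in TP, and 5.71% of the former (2.13 to 12.02) and 13.3% of the latter (10.7 to 16.2) were members. Thinned to 1000 UMIs, 1 of 96 Con barcodes (1.04%, 0.0264 to 5.67) and 27 of 605 TP barcodes (4.46%, 2.96 to 6.43) were, and these intervals overlap.

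The 6 markers divided the members along the same line. Pairs of markers that met in 1 cell differed between the libraries. Corin and Wif1 met in 23 of 35 Con members and 10 of 138 TP members. Cthrc1 and Tnmd met in 3 Con members and 62 TP members, Tnmd and C6 in 2 and 42, and Adamts18 and Wif1 in 6 and 36. Exactly 2 markers were present in 27 Con members and 76 TP members, and 3 or more in 8 and 62. Thus most Con members entered through a pair that the dermal papilla also carries, and the largest group of TP members through Cthrc1 with Tnmd.

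Corin (chr5:72299948-72504540, mouse build GRCm38) had a UMI in 27 of 35 Con members and 17 of 138 TP members. At 1000 UMIs per cell the shares were 65.7% (47.8 to 80.9) and 5.07% (2.06 to 10.2), with 2.36% and 0.888% of inner root sheath barcodes, an epithelial type that should lack the gene and so reads the free RNA of each library. Those background barcodes had medians of 2136.5 and 6903 UMIs before thinning. The summed level was 1275 CPM (UMIs per 1000000 UMIs of the summed members) in Con members and 69.8 CPM in TP members. By kind it was 2052 CPM in the papilla-gene members of Con and 479 CPM in those of TP, and 832 and 50.6 CPM in the contractile members.

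Wif1 (chr10:121034004-121100642) had a UMI in 26 Con members and 61 TP members, and at equal depth in 51.4% (34.0 to 68.6) and 17.4% (11.5 to 24.8), against a background of 4.62% and 2.66%. Its level was 1096 CPM in Con and 262 CPM in TP. Within the kinds the order was not the same: papilla-gene members had 2711 CPM in Con and 1394 CPM in TP, contractile members 255 and 632 CPM, and decorin members 200 and 17.3 CPM. The 10 papilla-gene members of Con all held both Corin and Wif1, and their levels of both lay near those of the dermal papilla barcodes of Con, at 2172 CPM Corin and 2714 CPM Wif1. These 10 cells held no other marker of the rule, so both genes had to be present. Their levels follow in part from that choice and are no support for the identity of the cells. Over members chosen without Corin, the log2 ratio of Wif1 was 0.06. Wif1 is itself a marker of that choice, which left 13 Con members, so no source of its lower level in TP was read from this value.

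Tnmd (chrX:133851008-133865577) had a UMI in 12 Con members and 108 TP members. The shares at equal depth were 5.71% (0.700 to 19.2) and 38.4% (30.3 to 47.1), and the background was 0.0963% and 0 of 338, which allows a share of up to 0.888% by a floor of 3 counts (Clopper-Pearson upper limit 1.09%). Its level over all members was 219 CPM in Con and 650 CPM in TP. In decorin members it was 842 and 791 CPM, a ratio of 0.940 (0.611 to 1.53). In contractile members it was 161 and 667 CPM, a ratio of 4.14 (2.29 to 8.22). At 1000 UMIs per cell, 0 of 15 contractile members of Con (0 to 21.8%) and 11 of 28 of TP (21.5 to 59.4%) had a UMI, intervals that overlap. Tnmd is a marker of the rule, so these levels are a description of the chosen cells.

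Cthrc1 (chr15:39076932-39087121) had a UMI in 3 Con members and 70 TP members, and at equal depth in 0 of 35, which allows a share of up to 8.57% when 3 counts are taken as the floor (Clopper-Pearson upper limit 10%), and in 21.0% (14.6 to 28.8). No inner root sheath barcode held it at that depth. All 4 Con UMIs and 633 of the 650 TP UMIs lay in decorin members, at 160 and 644 CPM, a ratio of 4.02 (1.56 to 14.8) that rests on those 4 UMIs, which are too few for a call. C6 (chr15:4727067-4804045) had 7 UMIs in 2 Con members, both decorin, and 161 UMIs in 45 TP members, 43 of them decorin. Its log2 ratio of 1.08 over all members, with too few UMIs for a call, turned to -0.13 without Corin among the markers and to -0.90 with the kinds held at their Con shares. Adamts18 (chr8:113697123-113849343) followed the contractile kind, with a UMI in 10 of 15 such members in Con and 24 of 28 in TP at 389 and 875 CPM. At 1000 UMIs per cell the shares were 53.3% (26.6 to 78.7) and 35.7% (18.6 to 55.9), intervals that overlap, so no order was read from them. Over all members the shares at that depth were 22.9% (10.4 to 40.1) and 13.8% (8.50 to 20.7). Over all members its level stood at 199 and 226 CPM, a ratio of 1.14 (0.780 to 1.71) whose direction turned without Corin among the markers (log2 -0.76) and without the adventitial genes (log2 -0.46).

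**Figure D3:**
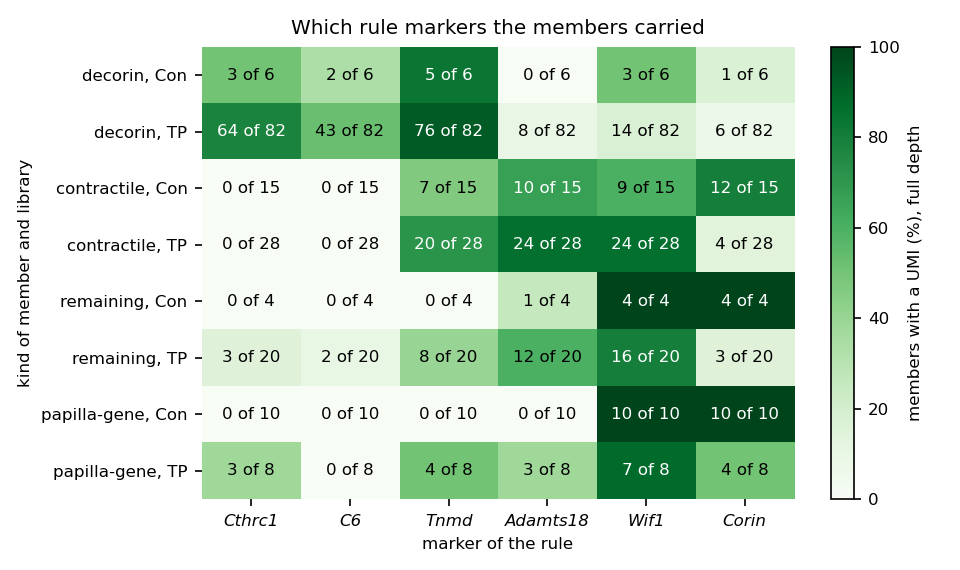
Share of members with a UMI of each marker of the rule (columns) by kind and library (rows), at full depth; colour gives the percent and the text the cells with a UMI of all cells of that kind. Cthrc1 and C6 are in 64 and 43 of the 82 decorin members of TP and in no contractile member, Corin and Wif1 are in 10 of 10 papilla-gene members of Con, and Adamts18 is in 24 of 28 contractile members of TP.

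The comparison of Con with TP over all members asks which genes differed in the cells that met the rule. Since the kinds differ in frequency, a summed level changes with the mixture of kinds as well as with the level in each kind. A gene was compared when its mean level gave at least 20 expected UMIs in the smaller library, and was called at a 2-fold difference or more, with 1 UMI added per library. A gene low in 1 library could pass that minimum through the other alone, so its call followed in part from the minimum. Of 1319 genes, 96 (7.28%) were called higher in TP and 186 (14.1%) lower, and the median log2 ratio was -0.20. Higher calls made up 34% of all calls. With trimmed mean (TMM) scaling every log2 ratio was 0.44 higher, the median was 0.24, and 177 genes were called higher and 100 lower, so 63.9% of calls were higher. All 96 higher calls and 100 of the 186 lower calls stood under that scaling. The balance of higher and lower calls therefore depends on the scaling, and the named genes below are described by their size.

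The calls also moved with the mixture of kinds. With each kind weighted by its share of UMIs in Con, in both libraries, 57 genes were called higher and 89 lower, among them 48 of the 96 and 73 of the 186. The median log2 ratio of the genes called higher went from 1.48 to 0.98, and that of the genes called lower from -1.51 to -0.83. This weighting was chosen after the data were seen. It rests on 4 to 15 cells a kind in Con.

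Among the 12 largest rises were genes of the collagen matrix, genes of early stress responses and a prostaglandin enzyme. Ctla2a, a cysteine protease inhibitor, had 2 UMIs in 35 Con members (13.3 CPM) and 543 CPM in TP, a ratio of 40.9 (11.3 to 339), with 771 CPM in the decorin members of TP and 0 UMIs in the contractile members. Cd34, a surface sialomucin of dermal fibroblasts and stem cells, was at 33.2 CPM in Con and 373 CPM in TP, a ratio of 11.3 (4.79 to 34.8). Pcolce2, which enhances the cleavage of procollagen, rose from 39.8 to 439 CPM, a ratio of 11.0 (5.04 to 30.1). Lox, the lysyl oxidase that starts collagen cross-links, rose from 46.5 to 448 CPM, a ratio of 9.64 (4.65 to 24.1), and its log2 ratio went from 3.08 to 1.05 in members found after thinning to 1000 UMIs. Lum rose from 146 to 1132 CPM, a ratio of 7.75 (5.10 to 12.4), and Dcn from 1295 to 7552 CPM, a ratio of 5.83 (5.06 to 6.76). Those 2 genes set the limit of the decorin kind. With the kinds held at their Con shares, the log2 ratios of the 12 largest rises ran from 1.26 to 3.23 in place of 2.59 to 4.77: Pcolce2 went from 3.24 to 1.72, Cd34 from 3.23 to 1.91, Tnfaip6 from 3.59 to 1.94 and Ctsh from 2.59 to 1.26.

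Hpgd, which breaks down prostaglandins, had 132.8 CPM in Con members and 1021 CPM in TP members, a ratio of 7.69 (4.96 to 12.6). Within decorin members the ratio was 3.10 (1.73 to 6.23), and in contractile members, where it had too few UMIs to be called, 3.64 (1.58 to 10.3). In Pi16-side fibroblasts it was 1.07 (0.853 to 1.36). With the kinds held at their Con shares its log2 ratio went from 2.87 to 1.73. Ctsh, a lysosomal cysteine protease, was at 66.4 CPM in Con and 440 CPM in TP, a ratio of 6.63 (3.58 to 13.9). Tnfaip6, which binds hyaluronan and is induced in inflammation, rose from 106 to 1362 CPM, a ratio of 12.8 (7.87 to 22.5), and Ugdh, which makes the precursor of hyaluronan, from 53.1 to 832 CPM, a ratio of 15.7 (7.93 to 36.4). Atf3, a stress-induced transcription factor, rose from 26.6 to 552 CPM, and Ifrd1, a regulator of transcription, from 173 to 1119 CPM, ratios of 20.8 (8.09 to 76.5) and 6.48 (4.41 to 9.95). These last 4 genes were also higher in the Pi16-side fibroblasts of TP, with TP over Con ratios of 6.55 for Tnfaip6, 7.44 for Ugdh, 7.05 for Atf3 and 6.94 for Ifrd1.

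The largest falls were in Sostdc1, Edn3 and Crabp1. Sostdc1, a secreted BMP and WNT antagonist, was at 2257 CPM in Con members, present in 18 of 35, and at 14.5 CPM in TP members, present in 10 of 138, so it was 156 times as high in Con (100 to 255). Edn3, the endothelin that acts on melanocytes, was at 956 and 14.5 CPM, 65.9 times as high in Con (41.5 to 109.6). Crabp1, a retinoic acid binding protein, was at 564 and 17.3 CPM, 32.7 times as high (20.7 to 53.3). Most of this came from the papilla-gene members and the 4 remaining members in Con, which had 7144 and 3509 CPM of Sostdc1, 2787 and 1883 CPM of Edn3 and 1317 and 1455 CPM of Crabp1. The papilla-gene members of TP had 113, 148 and 148 CPM. The folds shrank when Corin was left out of the markers: the log2 ratio of Sostdc1 went from -7.22 to -2.08, that of Edn3 from -5.98 to -1.66 and that of Crabp1 from -4.99 to -1.66. In members found after thinning to 1000 UMIs they were -4.37, -2.93 and -3.55. The papilla barcodes outside the rule, by contrast, held 3124 CPM of Sostdc1 in Con and 2277 CPM in TP, so the gap among members was wider than that among papilla barcodes. Papilla-gene members of TP also carried 5497 CPM of Dcn against 431 CPM in Con, and so were not the same mixture of transcripts.

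The other large falls were in Prss12, a serine protease at 272 CPM in Con and 11.1 CPM in TP, in the channel genes Trpm3 (498 and 25.6 CPM) and Kcnq3 (259 and 15.2 CPM), in Inhba, the activin subunit (412 and 24.9 CPM), and in the growth factor Mdk (372 and 24.9 CPM). Tmem176b stood at 425 and 31.1 CPM and Nav3 at 491 and 37.3 CPM. Their Con over TP ratios ran from 24.6 (13.5 to 47.0) for Prss12 to 13.2 (9.14 to 19.1) for Nav3. Trpm3 and Inhba went to the other side once Corin was left out of the markers, with log2 ratios of 0.66 and 0.29. At that setting the others were closer to 0 as well, at -2.01 for Prss12, -1.22 for Kcnq3, -1.20 for Mdk, -1.11 for Tmem176b and -0.66 for Nav3. Ccn2, the matricellular protein CTGF, had another source: it was 523.5 CPM in the contractile members of Con and 116 CPM in those of TP, and at most 25.3 CPM in the other kinds, and its Con over TP ratio over all members was 12.01 (7.35 to 19.7). Its log2 ratio of -3.58 was -2.52 as a mean over cells, -1.54 in members found after thinning and -2.07 with the kinds held at their Con shares.

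Of the 15 genes that stood highest in members over the other fibroblasts of both libraries, several belong to the contractile apparatus (Acta2, Tagln, Mylk, Myl9, Tpm1 and Tpm2). They are a description, since the rule chose the cells. Members exceeded other fibroblasts by 20.4 times in Con and 34.0 times in TP for Acta2, by 13.7 and 42.9 times for Tagln, and by 10.8 and 16.2 times for Col11a1, a minor fibrillar collagen. For Ednrb, an endothelin receptor, it was 10.3 and 35.0 times, and for Lrrc15, a leucine-rich surface protein, 14.5 and 11.0 times. For the myosin kinase Mylk it was 7.93 and 4.57 times, and for tropomyosin Tpm1 6.37 and 3.61 times. Acta2 stood at 2322 CPM in the contractile members of Con and 3018 CPM in those of TP, and at 0 and 4.07 CPM in decorin members. Over all members Acta2 was at 1208 CPM in Con and 440 CPM in TP. Since Acta2 helped to set the contractile kind, its level within that kind was fixed in part by that choice.

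Within the contractile kind, the 15 Con and 28 TP members were close to each other in most genes: of 551 genes compared, 34 (6.17%) were called higher in TP and 31 (5.63%) lower, with a median log2 ratio of 0.02. Beside the rule genes, Serpinh1, the collagen chaperone HSP47, stood at 376 CPM in Con and 1183 CPM in TP, a ratio of 3.15. Ptch1, the hedgehog receptor and target, stood at 349 and 723 CPM, a ratio of 2.07. Col11a1 was at 1651 and 2376 CPM, a ratio of 1.44 that is below the limit. On the lower side were Apoe, the lipid carrier, at 953 and 157 CPM, Ccn2 as above, and Bgn, the proteoglycan biglycan, at 2429 and 1021 CPM. Corin was 832 CPM in Con and 50.6 CPM in TP, a ratio of 0.0608, and Corin is itself a marker of the rule. The rule gene Wif1, with a ratio of 2.48, lay on the other side.

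Within the decorin kind only 6 Con members stand against 82 TP members, and 160 genes could be compared. Of these, 13 (8.12%) were called higher in TP and 10 (6.25%) lower, with a median log2 ratio of 0.15. Among those higher were Jund at 401 and 1496 CPM, Fos at 882 and 2694 CPM, Tnfaip6 at 521 and 1876 CPM, Hpgd at 441 and 1368 CPM and Serpinh1 at 521 and 1405 CPM. Their ratios ran from 2.70 for Serpinh1 to 3.73 for Jund. Among those lower were Apoe at 11222 and 3745 CPM, Clec3b, the plasminogen-binding tetranectin, at 2605 and 872 CPM, and Apod, another lipid carrier, at 1282 and 497 CPM. The fibrillar collagens differed little there: Col1a1 was at 55068 CPM in Con and 48932 CPM in TP, and Col1a2 at 60278 and 62332 CPM. Over all members the same genes were 2.67 and 3.11 times as high in TP, and the decorin kind made up 16.6% of member UMIs in Con and 68.0% in TP. With the kinds held at their Con shares the log2 ratios went from 1.42 to 0.75 and from 1.64 to 0.81. In contractile members the genes were 2.18 and 2.23 times as high in TP, and in papilla-gene members Col1a1 was at 3775 CPM in Con and 25326 CPM in TP.

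Marker lists outside the rule, chosen with earlier results of these data known, bear on the name papillary. Of 18 papillary dermis genes 5 had enough UMIs, and all 5 were called lower in TP members, beside 14.1% of all 1319 genes, with a median log2 ratio of -2.11 beside -0.20. Of the 5 calls, 2 stood with the kinds held at their Con shares, those of Apcdd1 and Crabp1. They were Apcdd1, a WNT inhibitor, Ntn1, a guidance protein, Col23a1, a membrane collagen, Crabp1, and Trps1, a transcription factor that the papilla list also holds. Their list summed to 3884 CPM in Con members and 1042 CPM in TP members, to 6967 CPM in the papilla-gene members of Con, and to 474 CPM in the decorin members of TP. Pi16-side fibroblasts had 1276 CPM in Con and 934 CPM in TP, below the members as a whole in each library. The kinds above them in both libraries were the papilla-gene, contractile and remaining ones. The decorin members of Con had 922 CPM. The decorin members of TP, the largest group, were therefore lower in this list than the Pi16-side cells. Of 17 dermal papilla genes, 7 were compared and all 7 called lower, beside 14.1% of all genes, with a median of -2.97 and sums of 6015 and 751 CPM, and 5 of the 7 calls stood with the kinds held at their Con shares. The counts of 5 of 5 papillary dermis and 7 of 7 papilla genes follow in part from the minimum of UMIs. Genes of these lists that were low in TP could be compared only through their Con level. No weight is therefore put on the comparison with 14.1%. Of 10 dermal sheath genes, 6 were compared, with 5 called lower and 1, Abi3bp, called higher, at a median of -1.52. Within the contractile kind 0 of 5 compared sheath genes were called lower or higher, with a median of 0.25 and sums of 6778 and 8412 CPM. Holding the kinds at their Con shares left 0 of the 6 calls and turned the sign of 4 of the 5 lower ones, for a list that holds genes which set the contractile kind.

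Markers of the reticular and adventitial dermis went the other way. Of 17 genes, 10 were compared, 5 were called higher in TP, beside 7.28% of all genes, and 0 lower, with a median log2 ratio of 1.23. Genes of this list that were low in Con, such as Cd34, could be compared only through their TP level. The count of higher calls thus follows in part from the minimum of UMIs, and no weight is put on the comparison with 7.28%. Holding the kinds at their Con shares left 2 of the 5 calls. The 5 were Ly6a, Ly6c1, Cd34, Gsn and Dpt. The list summed to 3871 CPM in Con members and 8127 CPM in TP members. In decorin members it was 12785 CPM in Con and 10211 CPM in TP, and in the Pi16-side fibroblasts 18038 and 20478 CPM. Ly6a, a surface protein of fibroblast progenitors, was at 425 CPM in Con members and 1195 CPM in TP members, and at 1723 and 1624 CPM in decorin members. The rise over all members was not seen within the decorin kind. Of the 13 general fibroblast genes compared, 2 were called higher and 0 lower, and Pdgfra, the receptor that marks fibroblasts, stood at 259 and 230 CPM.

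**Figure D4:**
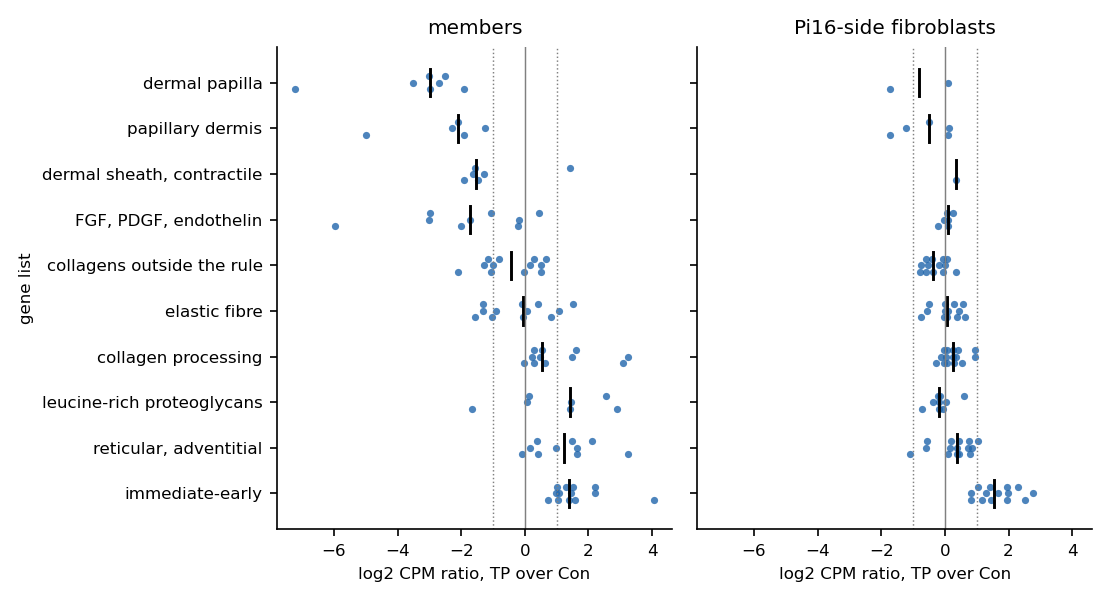
Log2 ratio of TP over Con in CPM for the compared genes of 10 gene lists, in members (left) and in Pi16-side fibroblasts (right); each point is 1 gene, the black bar is the median of its list, and the dotted lines mark 2-fold. In members the compared dermal papilla and papillary dermis genes all lie below the lower dotted line, which follows in part from the minimum of UMIs for a comparison. Immediate-early genes lie above 0 in both panels.

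Matrix genes split by family. Their counts stand beside 7.28% of all genes called higher and 14.1% called lower. Genes low in 1 library, such as Pcolce2 and Lox in Con, could be compared only through the other. These counts thus follow in part from the minimum of UMIs. Of 7 small leucine-rich proteoglycans compared, 4 were called higher in TP (Dcn, Lum, Aspn and Ecm2) and 1, Bgn, lower, with a median of 1.41. Bgn was at 1700 CPM in Con members and 541 CPM in TP members. With the kinds held at their Con shares, the log2 ratio of Aspn went from 1.41 to 0.17 and that of Ecm2 from 1.45 to -0.06, while those of Dcn and Lum were 1.36 and 1.73. Within contractile members all 3 compared genes of this family were called lower, beside 5.63% of the genes compared in that kind, with a median of -1.63. Of 11 collagen processing genes, 4 were called higher (Pcolce2, Lox, Serpinh1 and Sparc) and 0 lower, with a median of 0.55, and 3 of the 4 calls stood with the kinds held at their Con shares. Sparc, a collagen-binding matricellular protein, was at 14335 and 40357 CPM. Of 12 other collagens, 0 were called higher and 4 lower, namely Col4a2, Col11a1, Col15a1 and Col23a1, with a median of -0.42. Weighted by the Con shares of the kinds, 0 of these 4 calls stood, and within contractile members 2 of 10 other collagens were called higher and 0 lower, beside 6.17% and 5.63% of the genes compared in that kind, with a median of 0.53. Col11a1 is among them and helped to set that kind. Of 12 elastic fibre genes and their partners, 2 were called higher (Postn and Tnxb) and 4 lower (Eln, Fbn2, Fbln5 and Vcan), with a median of -0.06, near that of all genes, and 0 of the 6 calls stood under that weighting. Of 11 proteases and inhibitors, Mmp3, Timp2 and Htra3 were called higher and Timp3 and Serpine2 lower, with a median of 0.81. Under the same weighting 0 of the 3 higher calls and 1 of the 2 lower calls stood, and Mmp3 turned from 1.46 to -0.12 and Htra3 from 1.11 to -0.01.

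Genes of secreted signals and their receptors were compared against the same shares of 7.28% higher and 14.1% lower. Genes low in 1 library could be compared only through the other, so these counts follow in part from the minimum of UMIs. Of 4 WNT inhibitors compared (Sostdc1, Sfrp1, Dkk2 and Apcdd1) all 4 were called lower, with a median of -3.07, and all 4 calls stood with the kinds held at their Con shares. In Con the list summed to 13428 CPM in papilla-gene and 10184 CPM in the remaining members. It summed to 1302 CPM in contractile and 721 CPM in decorin members of Con, and no gene of it could be compared within those kinds. Sfrp1 stood at 1746 CPM in Con and 157 CPM in TP. The WNT agonists Rspo2 and Rspo3 were lower too, at 266 and 47.0 CPM and at 279 and 24.2 CPM. Of 9 FGF, PDGF and endothelin genes 6 were called lower and 0 higher, with a median of -1.71. They were the ligands Fgf7 (730 and 90.6 CPM), Fgf10 (405 and 51.9 CPM) and Edn3, and the receptors Fgfr1, Ednra and Ednrb. The list summed to 8614 CPM in the papilla-gene members of Con and 3006 CPM in those of TP. Within contractile members 4 of its genes were compared and 0 called, with a median of 0.02 and sums of 2617 and 2679 CPM. Weighted by the Con shares of the kinds, 4 of the 6 calls stood, Ednra was at -0.89, and Ednrb turned from -1.06 to 0.74. Of 7 IGF genes, the binding proteins Igfbp5 and Igfbp6 were called higher and Igfbp2, Igfbp4 and Igfbp7 lower. Under that weighting the calls of Igfbp5 and Igfbp7 stood, and Igfbp2 turned from -1.06 to 0.74. Igfbp4 was at 1680 CPM in Con members and 386 CPM in TP members, and at 2872 and 1795 CPM in the contractile kind alone. Of 8 TGF-beta genes, Tgfb2 and Tgfbr3 were called higher and Tgfbr1, Ltbp1, Ccn2 and Inhba lower. Under that weighting 0 of the 2 higher calls and 3 of the 4 lower calls stood. The chemokine gene Cxcl12, which draws leukocytes and which fibroblasts secrete, had a UMI in 6 of 35 Con members and 70 of 138 TP members and stood at 99.6 and 270 CPM, a ratio of 2.71 (1.63 to 4.90). At 1000 UMIs per cell its shares were 11.4% (3.20 to 26.7) and 18.8% (12.7 to 26.4), with 0.144% of inner root sheath barcodes in Con and 0 of 338 in TP. All 15 Con UMIs lay in decorin members, at 601 CPM against 370 CPM in the decorin members of TP, and the ratio within that kind was 0.616 (0.369 to 1.11). Its log2 ratio over all members went from 1.35 to -0.08 with the kinds held at their Con shares.

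Immediate-early genes, which cells switch on within minutes of stimulation or tissue handling, were higher in TP: 11 of 13 compared were called higher and 0 lower, beside 7.28% and 14.1% of all genes, with a median of 1.39 beside -0.20. Jund was at 272 CPM in Con and 1291 CPM in TP, Jun at 750 and 1846 CPM, and Ier2 at 186 and 570 CPM. Fos, at 1341 and 2635 CPM, missed the limit. The list summed to 4774 and 12044 CPM in members. Barcodes of other types had the same direction, with sums of 3816 and 10649 CPM in Pi16-side fibroblasts, where 12 of 14 compared genes were called higher beside 2.88% of 2364 genes called higher and 2.37% lower, of 2398 and 7638 CPM in inner root sheath barcodes, and of 2920 and 13342 CPM in papilla barcodes. In the contractile members the sums were 7221 and 8923 CPM, with 1 of 12 compared genes called higher, beside 6.17% of all genes in that kind, and a median of 0.24. Of 10 heat shock genes, 0 were called higher and 1 lower, shares near those of all genes. The part of tissue handling in these values was not tested.

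Transcripts of other cell types moved with the libraries as well. Keratinocyte genes summed to 2981 CPM in Con members and 5202 CPM in TP members, with Krt10 and Krtdap of 7 compared genes called higher. The counts of these lists stand beside 7.28% of all genes called higher and 14.1% called lower, and follow in part from the minimum of UMIs. In inner root sheath barcodes the same list was at 6892 and 13557 CPM. Hair shaft and inner root sheath genes summed to 1428 and 344 CPM, all 3 compared genes were called lower, and Pi16-side fibroblasts had 1737 and 343 CPM. Macrophage genes were at 6.64 CPM in Con members, where 1 gene of the list had a UMI, and at 91.3 CPM in TP members. In TP they were at 470.8 CPM in the remaining members, 62.1 CPM in decorin members and 0 in papilla-gene and contractile members. Pericyte genes were at 33.2 and 73.3 CPM, endothelial genes at 13.3 and 2.77 CPM, and tendon genes at 339 and 80.9 CPM. Adipocyte genes summed to 285.5 and 756 CPM, and the 1 compared gene, Lpl, the lipoprotein lipase, was called higher. Lpl had a UMI in 6 of 6 decorin members of Con and 77 of 82 of TP. Within that kind its log2 ratio was -0.59. Over all members it went from 1.34 to 0.04 with the kinds held at their Con shares, so the call did not stand. No gene of the macrophage, pericyte, endothelial and tendon lists, nor of the melanocyte, Schwann cell and lymphocyte lists, had enough UMIs to be compared. Rgs5, the defining pericyte gene, had 0 UMIs among members of either library, and Pecam1, which marks endothelium, was seen in 1 member of each. Their part in the differences of fibroblast genes was not tested.

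The decorin members of TP were the one group large enough to be set against the Pi16-side fibroblasts of their own library, 82 cells against 288. The adventitial genes of the rule and the 6 markers differ by construction. Of 6341 genes with at least 20 expected UMIs, 116 (1.83%) were at least 2-fold higher in the decorin members and 649 (10.2%) at least 2-fold lower, with a median log2 ratio of -0.27. The collagens of the rule were among those higher or near the limit, with 3.35 times the Col1a1 level, 2.99 times the Col1a2 level and 1.79 times that of Col3a1, and Sparc was 3.24 times as high.

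**Figure D5:**
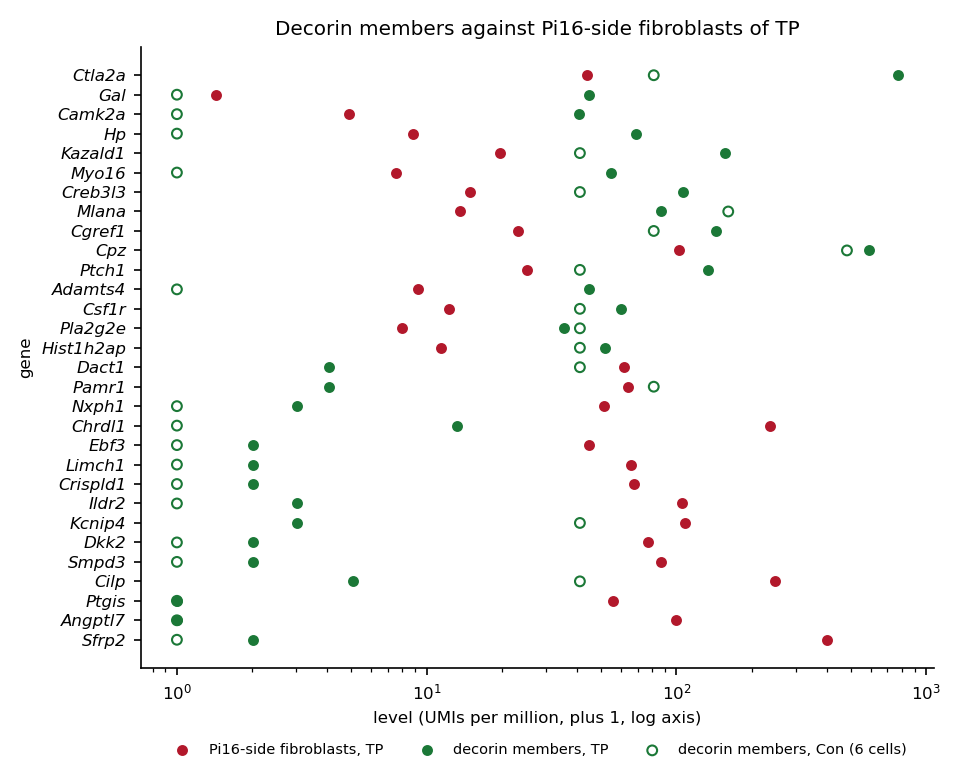
Level of 30 genes (CPM plus 1, log axis) in the 82 decorin members of TP (filled green), the 288 Pi16-side fibroblasts of TP (red) and the 6 decorin members of Con (open green): the 15 genes with the highest and the 15 with the lowest ratio of decorin members over Pi16-side fibroblasts among those with a symbol and outside the rule, a choice made after values were seen. Ctla2a stands at 771 CPM in the decorin members against 42.9 CPM, and Sfrp2 at 1.02 against 402 CPM.

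Outside the rule, the decorin members of TP were higher in Ctla2a, at 771 CPM against 42.9 CPM, a ratio of 17.96. Hpgd was 3.82 times as high (3.50 to 4.17), at 1368 against 358 CPM. Cpz, a carboxypeptidase with a frizzled-like domain, was 5.85 times as high at 591 against 101 CPM, and Kazald1, an IGF-binding protein relative, 8.35 times at 156 against 18.6 CPM. Ptch1 was 5.49 times as high at 133 against 24.3 CPM. Lgr5, the R-spondin receptor, was 3.43 times as high at 187 against 54.6 CPM. Mfap2, a microfibril protein, was 2.95 times and Postn, a matricellular protein, 2.25 times as high. Ptch1 was higher still in the contractile kind of TP, at 723 CPM, so it does not mark the decorin members alone.

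Several genes with high ratios there rest on few UMIs or cells, or are better known from other cell types. Camk2a stood at 39.7 against 3.90 CPM and Myo16 at 53.9 against 6.50 CPM. The neuropeptide gene Gal stood at 43.7 against 0.434 CPM, the latter being 1 UMI, for a ratio of 101 (17.2 to 4080), and its UMIs came from 13 TP members. Hp had its 67 member UMIs in 2 cells. Csf1r, the macrophage growth factor receptor, was 5.23 times as high at 59.0 against 11.3 CPM, and had a UMI in 34 of 138 TP members. Mlana, a melanocyte gene, was 6.80 times as high at 85.4 against 12.6 CPM. In these decorin members the macrophage list, which holds Csf1r, summed to 62.1 CPM. The melanocyte list, which holds Mlana, summed to 95.6 CPM. Little of either list thus lay outside Csf1r and Mlana, and the source of their transcripts was not tested. The doublet score called 14 of the 82 decorin members of TP and 38 of the 288 Pi16-side fibroblasts, and these were kept.

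Among the 649 lower genes, a few secreted proteins are named here after their values were seen. Sfrp2, a WNT modulator, had 1 UMI in the decorin members (1.02 CPM) against 402 CPM in the Pi16-side cells, and Dkk2, a WNT inhibitor, 1 UMI against 76.3 CPM. Cilp, a matrix protein, was 60.6 times as high in the Pi16-side cells at 247 against 4.07 CPM, and Chrdl1, a BMP antagonist, 19.3 times at 235 against 12.2 CPM. Of 7 WNT inhibitors compared, 3 were at least 2-fold lower and 1 higher, and of 10 BMP genes 2 were lower and 0 higher, beside 10.2% of all genes lower and 1.83% higher in this contrast. Igfbp6 was 3.44 times as high there at 1536 against 447 CPM, Fn1, the gene of fibronectin, 3.39 times at 1716 against 507 CPM, and Gsn, the actin-severing gelsolin, stood at 7613 against 2336 CPM. Of the 16 reticular and adventitial genes compared, 7 were at least 2-fold lower in decorin members and 0 higher. Pi16-side cells were chosen for adventitial genes and members for holding few of them, so this direction follows in part from the choice. In contrast Dcn was 0.899 times the Pi16-side level (0.879 to 0.920) and Lum 1.43 times, so the Pi16-side fibroblasts held these proteoglycans too. Both genes set the limit of the decorin kind and not that of the Pi16-side cells, so these ratios follow in part from that choice.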

How the data were processed

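Single-cell libraries of dorsal skin, 1 per group, were made with a droplet 3' chemistry. The deposited matrices hold whole-number UMI counts per gene and barcode that the authors made with Cell Ranger 8.0.1 on mouse build mm10, per the submitters' processing notes. Totals were 130999979 UMIs over 45709 barcodes in Con and 166929585 over 25931 in TP, which limits rare genes in the 35 Con members. The members and gene lists (37 in number) were chosen with earlier results of these data known.

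UMIs of members were summed per library and scaled to 1000000 UMIs (CPM). The log2 ratio added 1 UMI per library, genes with under 20 expected UMIs in the smaller library were left out, and a call was a 2-fold difference. Intervals were exact Poisson, Clopper-Pearson or conditional binomial at 95% and cover counting error only. No test was made, since each group is 1 library. With 3 counts as the floor, a gene at 0 could reach 19.9 CPM in Con members and 2.07 CPM in TP members. Genes named in the text were those of the rule, the 15 highest in members over other fibroblasts in both libraries, the 12 largest rises and falls, genes of the lists and genes called in opposite directions in members and Pi16-side fibroblasts. Gene models without a symbol were left out of the ranked sets. Genes of the contrast with Pi16-side fibroblasts, and those within kinds, were picked after their values were seen.

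Dermal papilla barcodes held at least 3 of 8 papilla genes, and inner root sheath barcodes at least 100 UMIs per 10000 of Krt25, Krt27, Krt28 and Krt71. Doublets were scored against artificial doublets (25% of the merged data, 30 components, 2000 variable genes, the nearest 1% of barcodes, top 7.5% called), which marked 3168 Con and 1503 TP barcodes. Of 540 genes tabulated, 539 matched a RefSeq symbol of GRCm38.p6, the source of coordinates. Of the listed genes, Krt85, Leprel1 and Sts were not found by symbol. Alternatives were another scaling (TMM, edgeR 4.0.16 in R 4.3.3), other limits of the rule, other count minimums and other weights. The software was Python 3.11.15 (scipy 1.17.1, pandas 2.3.3, numpy 2.4.6).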

Additional observations from a re-analysis of the deposited data

Results flagged for a closer look

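Of the 1232 genes compared both in members and in Pi16-side fibroblasts, Hspb1 and Nav3 differed between TP and Con by at least 2-fold in opposite directions in these groups of cells. Hspb1, a small heat shock protein, had a log2 ratio of TP over Con of -1.11 in members, at 750 and 350 CPM, and of 1.05 in Pi16-side fibroblasts, at 220 and 464 CPM. Among the kinds of members it was at 1127 and 647 CPM in contractile members and at 80.2 and 243 CPM in decorin members. Its log2 ratio in members was under 2-fold at several settings: -0.57 with the kinds held at their Con shares, -0.67 with TMM scaling, -0.52 in members found after thinning, -0.53 without exclusion genes and -0.64 without Corin among the markers. Nav3, a microtubule-associated protein, had a log2 ratio of -3.71 in members, at 491 and 37.3 CPM, and of 2.30 in Pi16-side fibroblasts, at 36.7 and 200 CPM. The papilla-gene members of Con held it at 1419 CPM, and without Corin among the markers its log2 ratio in members was -0.66. The difference between the groups of cells was not tested, as each condition is 1 library.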

How the results depend on the processing

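The share ratio of 8.31 stayed above 1 at every setting run, apart from 1.00 as a share of barcodes over the collagen minimum. It was 3.35 after thinning, 1.93 and 22.03 with collagen minimums of 50 and 200 per 10000, 16.3 with at least 3 markers and 21.6 without Corin. By kind, limits chosen after seeing the data, it was 28.8 for decorin, 3.93 for contractile and 1.69 for papilla-gene members. It lay between 7.23 and 10.7 without doublets, with stricter or no exclusion genes, and with mitochondrial limits of 5% or 20%. The 96 higher and 186 lower of 1319 genes became 177 and 100 with TMM scaling, and 57 and 89 with the kinds at their Con shares. Without Corin they were 31 and 33 of only 383 genes compared, or 8.09% and 8.62% beside 7.28% and 14.1%. They were 163 and 449 of 2829 with at least 10 expected UMIs, 48 and 48 of 365 with at least 50, and 547 and 7035 of 15602 with no filter. The other 6 settings gave 95 to 108 and 142 to 187. Of 36 named genes, these log2 ratios changed sign: without Corin, C6 (-0.13), Wif1 (0.06), Trpm3 (0.66), Inhba (0.29) and Adamts18 (-0.76); in members found after thinning, Pi16 (0.51) and Mfap5 (0.35); without exclusion genes, Pi16 (0.09) and Adamts18 (-0.46); and with kinds at their Con shares, C6 (-0.90). Of the other values of these genes, 213 lay within the counting interval and 101 outside it in the same direction. The cause was not tested. Depth limits the Con side most, with 35 members and 6 of the decorin kind. No paired analysis was possible because each group was 1 library.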
